A study of Manis javanica with 3 samples.

Results

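Nuclear receptors are transcription factors that share a DNA-binding domain and, in most members, a pocket for a small lipid-soluble ligand. Many sit on their target genes as heterodimers with a retinoid X receptor (RXR), and exchange corepressors for coactivators when the ligand binds. In the liver and gut they sense bile acids, oxysterols, fatty acids, vitamins, hormones and foreign compounds, and set the transcription of the enzymes and transporters that handle them.

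A list of 43 receptors was searched in the deposited annotation of the Malayan pangolin (*Manis javanica*), and each was found. Genes were taken by the symbol in their Swiss-Prot entry, and paralogs were told apart by the product that their NR entry names. This gave 48 genes of the 24220 in the expression tables. Of these, 45 carried a listed symbol and 3 (NR0B2, RORA and RORB) were found by product name only. The symbol was that of another receptor for 14 genes. HNF4A, HNF4G and RXRA, for example, all carry RXRG as their symbol. NR1H4, NR3C1, NR2C1 and PGR had more than 1 gene, which may be copies or fragments of a gene between which reads were split, and these are given by their gene identifiers. Of the NR1H4 genes, gene9807 is named bile acid receptor-like and may also be another receptor. It is counted as NR1H4 here and in the sums below.

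Poly(A) RNA of the liver, small intestine and salivary glands of 1 adult female was sequenced. The animal came from the wild, died during rescue, received no treatment that the sources name, and was dissected at once. Each tissue gave 1 library, so no difference below has a replicate check and no test between tissues was possible. The question is which receptors the digestive organs of this ant-eating mammal transcribe, and at what level.

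Levels are given as the deposited FPKM, a measure that scales the fragments of a gene by transcript length and by sequencing depth. The deposited values do not follow from the listed counts and lengths alone. In the liver, RXRA had 2916 fragments over 4813 bases at an FPKM of 30.6, and NR1H2 had 1702 over 4986 at 40.6. Comparisons between genes, class sums and the RXR ratios below rest on the deposited values and carry this limit. An FPKM above 1 was taken as expressed. Differences between libraries are log2 ratios of counts scaled by TMM, the trimmed mean of M-values, where 1 is 2-fold and 2 is 4-fold. Each carries an exact 95% interval, which covers counting error only. Amplified reads are not independent molecules, so the interval can be too narrow even for that error. A ratio was formed for genes with at least 10 fragments in 1 of the 2 libraries, and a gene with a log2 ratio of at least 1 in size was called past 2-fold. A count of 0 was set to 3 fragments, and such a ratio is a bound, which leaves out the counting error of the other library. The 3 comparisons share libraries and are not independent. In bulk tissue, fewer cells of a type and less RNA per cell cannot be told apart.

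The libraries held 14568778 fragments for the liver, 10158924 for the small intestine and 8318686 for the salivary glands. The hepatocyte list (8 of 8 markers found) summed to an FPKM of 27889 in the liver, against 135 for the small intestine and 125 for the salivary glands. The library labelled small intestine went against its label: the gastric list (10 of 11 markers found) summed to 109939 there, against 0.503 in the liver and 83.5 in the salivary glands. Of the 7 enterocyte markers found, FABP2, LCT and CDX1 were at 0 in it, SI (sucrase-isomaltase) had 2 fragments, and VIL1 held most of the summed FPKM of 26.6. The transporters SLC5A1 and SLC15A1, at 63 and 14 fragments, were past 2-fold higher in it than in the other libraries where a ratio was formed. It is called the small intestine library below, as labelled, and no level in it is read as that of enterocytes. Smooth muscle markers (5 of 6 found) summed to 3169 in that library, 349 in the salivary glands and 30.2 in the liver, and fibroblast markers (6 of 6) to 299.8, 62.0 and 96.03. Of the 10 salivary gland markers 3 were found, of which AQP5 was highest in the salivary glands (24.7, 2.29 and 94.3, ordered as liver, small intestine and salivary glands) and KRT14 highest in the small intestine library (0, 77.1 and 34.9), and LPO had at most 6 fragments. The macrophage list (5 of 6 found) summed to 363 in the liver, 29.9 for the small intestine and 21.5 for the salivary glands.

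The levels of the receptor genes are described first, then their ratios. An FPKM above 1 was listed for 35 of the 48 receptor genes (72.9%) in the liver, 32 (66.7%) for the small intestine and 26 (54.2%) for the salivary glands. Over all genes the shares were 57.02%, 59.4% and 56.3%. In all 3 libraries 24 receptor genes were above this level (50% against 46.9% of all genes), and 40 were above it in at least 1 (83.3% against 69.3%). Of these 40, the highest FPKM fell in the liver for 17, in the small intestine for 15 and in the salivary glands for 8. The median receptor stood at an FPKM of 3.65, 3.53 and 2.33, in the order liver, small intestine and salivary glands, which is also the order of values below.

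The receptor genes that did not pass an FPKM of 1 in any library numbered 8. They are NR1I3 (the constitutive androstane receptor), THRB, the estrogen receptors ESR1 and ESR2, both genes of the progesterone receptor PGR, RORB and NR5A1 (steroidogenic factor 1). The highest FPKM among them was 0.665 and the highest count 25 fragments. At these depths a count of 0 still allows a level, as CPM (counts scaled to library depth), of up to 0.206, 0.295 and 0.361.

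**Figure D1:**
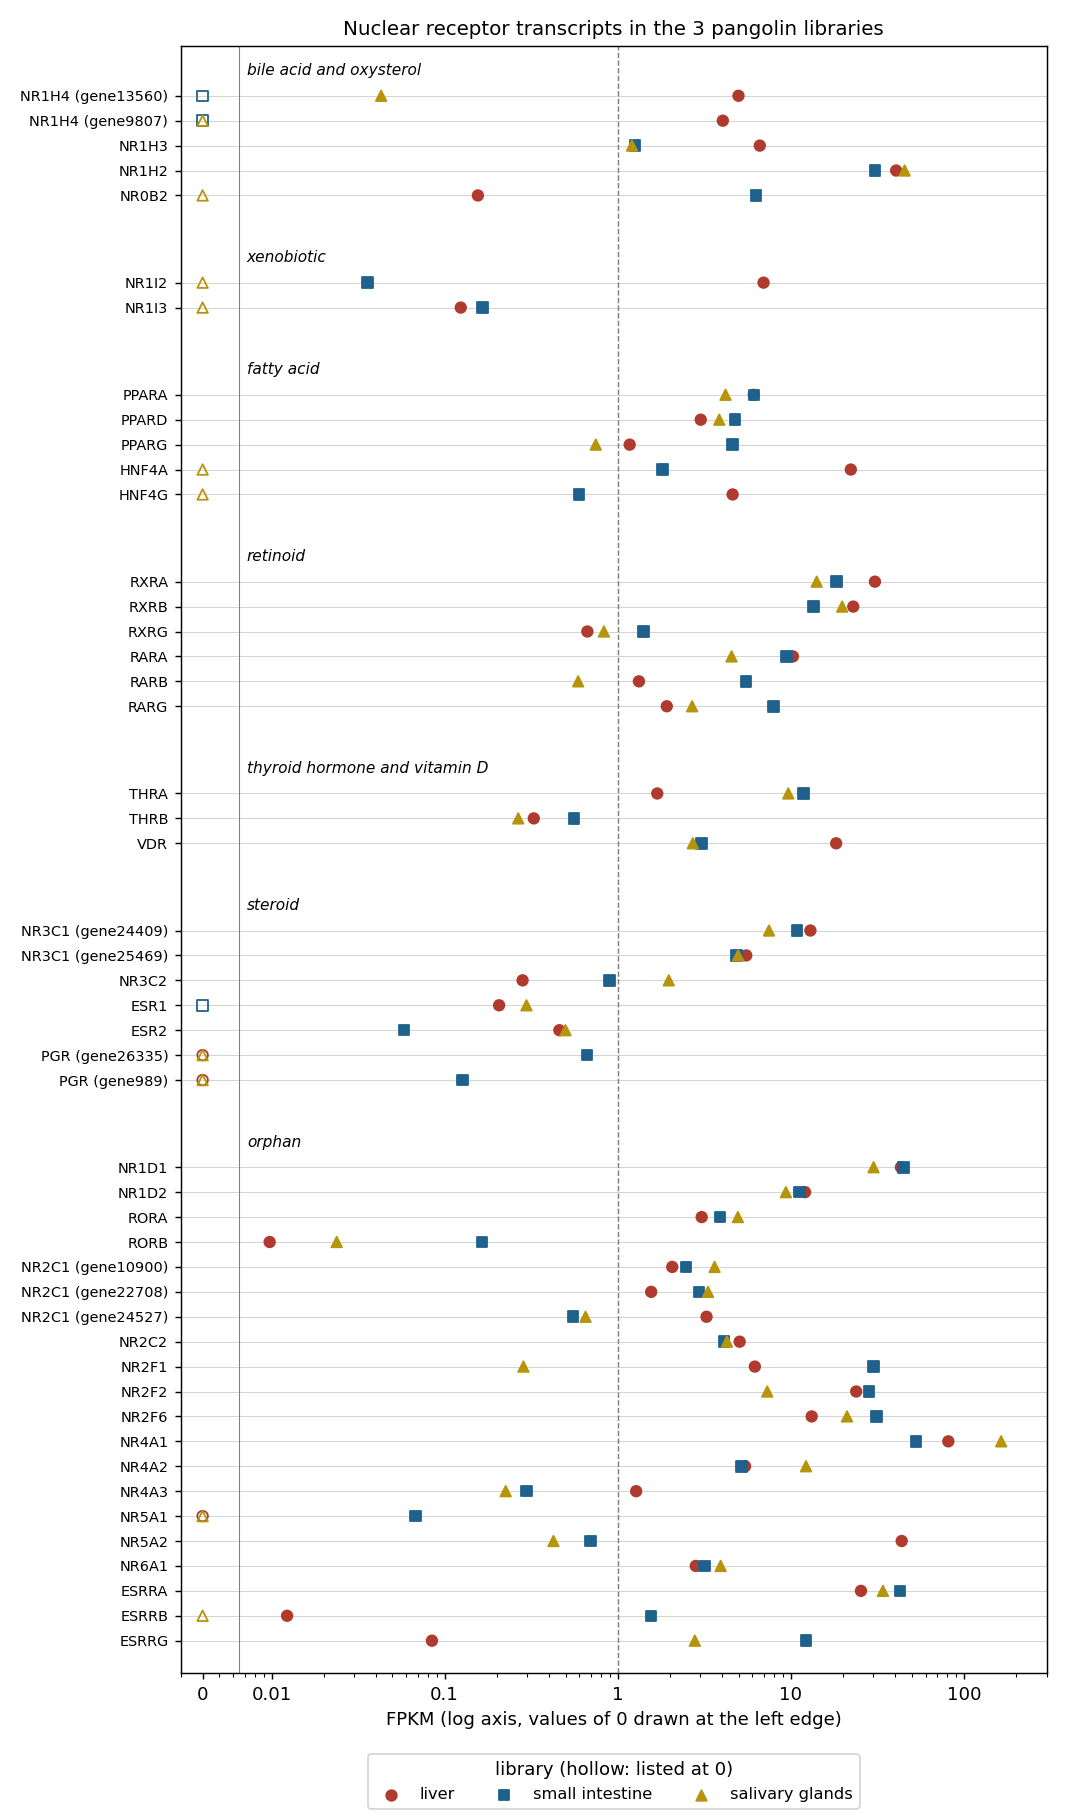
FPKM of each nuclear receptor gene (rows, by ligand class) in the liver, small intestine and salivary gland libraries, on a log axis with the threshold of 1 dashed and values of 0 as hollow symbols at the left edge. NR4A1 reached the highest level in each library, up to 164 in the salivary glands, while NR1I2, NR5A2 and both NR1H4 genes were above 1 only in the liver.

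Bile acid and oxysterol receptors. NR1H4 is the bile acid receptor FXR, which holds down bile acid synthesis. Its gene gene13560 was at an FPKM of 4.99, 0 and 0.043 (156, 0 and 1 fragments), and gene9807, named bile acid receptor-like, was at 4.05, 0 and 0 (98, 0 and 0 fragments). Both were thus seen in the liver library and nearly nowhere else. For gene13560 the liver was at least 30.7-fold higher than the small intestine, and the log2 ratio to the salivary glands was 6.70 (4.20 to 12.01). For gene9807 the liver was at least 19.3-fold and 21.7-fold higher.

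NR0B2 (SHP) lacks a DNA-binding domain and acts as a repressor that FXR is known to induce. It followed another pattern than FXR, with an FPKM of 0.156, 6.28 and 0 (3, 59 and 0 fragments). The small intestine library was the high one, with a log2 ratio of liver to small intestine of -5.06 (-7.38 to -3.44), and it was at least 22.1-fold above the salivary glands. Beside this stands the gastric marker list, whose sum was also highest in that library, and its part in the result was not tested.

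The oxysterol receptors LXR-alpha (NR1H3) and LXR-beta (NR1H2) activate cholesterol export. NR1H2 was the more abundant one in every library, with an FPKM of 40.6, 30.6 and 45.4 (1702, 705 and 1249 fragments). NR1H3 stood at 6.62, 1.26 and 1.21 (318, 28 and 33 fragments). The liver library was the high one for NR1H3, with log2 ratios of 2.75 (2.19 to 3.36) to the small intestine and 2.68 (2.16 to 3.24) to the salivary glands. NR1H2 stayed within 2-fold in each comparison. Its small intestine to salivary gland ratio of -0.66 was past it at -1.11 with library size as the only scaling. LXR-alpha is also expressed by macrophages, and all 5 macrophage markers found were past 2-fold higher in the liver in both comparisons. Their part in the NR1H3 level was not tested.

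Xenobiotic receptors. NR1I2 (the pregnane X receptor, PXR) senses drugs and other foreign compounds. It was at an FPKM of 6.96, 0.036 and 0 (377, 1 and 0 fragments), so that it was a liver transcript in these libraries. The log2 ratio of liver to small intestine was 7.80 (5.31 to 13.11), and the liver was at least 83.5-fold above the salivary glands. Its relative NR1I3 had 5, 3 and 0 fragments, too few for a ratio, and it overlaps a gene on the other strand by 807 bases.

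Fatty acid receptors. PPARA, which drives fatty acid oxidation, was at an FPKM of 6.11, 6.14 and 4.20 (752, 454 and 357 fragments). PPARD, its broadly expressed relative, was at 3.02, 4.76 and 3.86 (433, 349 and 341 fragments). Neither was past 2-fold in any comparison. PPARG, best known from fat cells, was low and was highest in the small intestine library, with 1.17, 4.61 and 0.747 (30, 72 and 16 fragments). Its log2 ratio was -2.02 (-2.69 to -1.39) for liver to small intestine and 2.34 (1.54 to 3.22) for small intestine to salivary glands. Of the adipocyte markers, 4 of 5 were found and summed to an FPKM of 0.077, 5.67 and 20.04. CIDEC, like PPARG, was highest in the small intestine library (4, 100 and 36 fragments), FABP4 in the salivary glands (0, 9 and 114 fragments), ADIPOQ had 0, 0 and 9 fragments, and LEP was at 0 in each library. Their part in the PPARG level was not tested.

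HNF4A and HNF4G bind fatty acids constitutively, and HNF4A is a central regulator of hepatocyte genes. HNF4A was at an FPKM of 22.2, 1.81 and 0 (2142, 102 and 0 fragments) and HNF4G at 4.61, 0.597 and 0 (176, 18 and 0 fragments). The liver was high, the small intestine intermediate and the salivary glands at 0 for both. Log2 ratios of liver to small intestine were 3.63 (3.35 to 3.93) for HNF4A and 2.53 (1.83 to 3.32) for HNF4G. Against the salivary glands, HNF4A was at least 474-fold higher in the liver and at least 38.2-fold higher in the small intestine, and HNF4G at least 39.0-fold and 6.75-fold.

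Retinoid receptors. RXRA was at an FPKM of 30.6, 18.4 and 14.1 (2916, 878 and 844 fragments) and RXRB at 23.0, 13.5 and 19.8 (1315, 396 and 718 fragments). RXRG stayed near the threshold at 0.668, 1.40 and 0.832 (20, 18 and 14 fragments). RXRA was past 2-fold in the liver against the salivary glands (log2 ratio 1.198, 1.09 to 1.31), but at 0.98 with library size only. Against the small intestine, both RXRA and RXRB had a log2 ratio of 0.97, just short of the call, and with library size as the only scaling both were past it at 1.21. RXRB was at -0.69 for small intestine to salivary glands, and at -1.15 with library size only. RXRB overlaps RING1 on the other strand by 90 bases, and the reads were aligned without strand.

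The retinoic acid receptors bind all-trans retinoic acid. RARA was at an FPKM of 10.3, 9.41 and 4.55 (568, 278 and 173 fragments). RARB was at 1.33, 5.50 and 0.591 (48, 135 and 17 fragments) and RARG at 1.92, 7.92 and 2.69 (90, 205 and 89 fragments). The small intestine library was the high one for RARB and RARG, with log2 ratios of liver to small intestine of -2.25 (-2.76 to -1.77) and -1.95 (-2.32 to -1.58). Small intestine to salivary glands gave 3.16 (2.43 to 3.98) for RARB and 1.37 (1.01 to 1.75) for RARG, the latter 0.92 with library size only. RARA was past 2-fold in the liver against the salivary glands (1.12, 0.88 to 1.38), but at 0.91 with library size only.

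Thyroid hormone and vitamin D receptors. THRA was at an FPKM of 1.69, 11.9 and 9.67 (167, 551 and 555 fragments). It was low in the liver, with log2 ratios of -2.48 (-2.74 to -2.23) and -2.32 (-2.58 to -2.07), and alike in the other libraries at 0.16 (-0.01 to 0.33). THRB, known as the main hepatic isoform of other mammals, had 21, 25 and 18 fragments and an FPKM of 0.328, 0.558 and 0.266. Its liver to small intestine ratio of -1.01 (-1.92 to -0.11) lay at the edge of the call, and was -0.77 both with library size only and by the deposited FPKM. THRA ends within NR1D1, which runs on the other strand, and the 2 genes share 34 bases. At its start THRA overlaps another gene on the other strand by 370 bases, and that gene held 514, 215 and 465 fragments.

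VDR, the vitamin D receptor, is known for its role in intestinal calcium uptake. It was at an FPKM of 18.3, 3.05 and 2.72 (1326, 88 and 93 fragments), highest in the liver. The log2 ratios were 3.15 (2.84 to 3.48) to the small intestine and 3.24 (2.94 to 3.56) to the salivary glands, with 0.09 (-0.35 to 0.53) between those libraries. The small intestine library went against its label, as given above, so its VDR level is not read as that of enterocytes. The same limit holds for each gene in that library. Among these are NR1H4, NR1I2, HNF4A and HNF4G above, and SLC51A, FABP6 and the genes of vitamin D handling below. A new gene on the other strand lies inside VDR over 2322 bases and held 72, 18 and 18 fragments. VDR is also expressed by macrophages, whose markers were higher in the liver as given above, and their part was not tested.

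Steroid receptors. The glucocorticoid receptor NR3C1 had 2 genes. Its gene gene24409 was at an FPKM of 13.0, 10.9 and 7.48 (721, 444 and 346 fragments) and gene25469 at 5.53, 4.85 and 4.96 (117, 63 and 77 fragments), all within 2-fold. The mineralocorticoid receptor NR3C2, which controls sodium uptake in salt-retaining epithelia, was at 0.282, 0.896 and 1.97 (23, 46 and 118 fragments). It was highest in the salivary glands and lowest in the liver, with log2 ratios of -1.76 (-2.55 to -1.01) for liver to small intestine, -2.95 (-3.66 to -2.30) for liver to salivary glands and -1.19 (-1.71 to -0.69) for small intestine to salivary glands. ESR1 had 17, 0 and 18 fragments and ESR2 had 22, 2 and 15, so both were lowest in the small intestine library. For ESR1 the liver was at least 3.35-fold and the salivary glands at least 5.34-fold above it. For ESR2 the log2 ratios were 2.70 (0.68 to 5.83) for liver to small intestine and -2.74 (-5.91 to -0.63) for small intestine to salivary glands. PGR was seen only there, with 4 and 2 fragments on its genes.

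Orphan receptors: the clock pair and the NR4A group. NR1D1 and NR1D2 (REV-ERB alpha and beta) are haem-binding repressors of the circadian clock. NR1D1 was at an FPKM of 43.3, 44.9 and 30.1 (1954, 1048 and 869 fragments) and NR1D2 at 12.1, 11.2 and 9.37 (548, 391 and 371 fragments), within 2-fold throughout. RORA, which binds the same DNA elements as an activator, was at 3.06, 3.89 and 4.95 (244, 232 and 357 fragments), with a liver to salivary gland ratio of -1.14 (-1.38 to -0.90), but -0.69 by the deposited FPKM. RORB, known from retina and brain, had 2, 13 and 3 fragments, with log2 ratios of -3.46 (-6.65 to -1.32) for liver to small intestine and 2.28 (0.42 to 4.74) for small intestine to salivary glands.

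NR4A receptors are immediate-early genes whose products act without a known ligand. NR4A1 held the highest FPKM of all receptor genes in each library, 81.3, 52.7 and 164 (4069, 1391 and 5564 fragments), and ranked 258th among all genes in the salivary glands. It made up 16.9%, 12.4% and 38.3% of the summed FPKM of the receptor genes. NR4A2 was at 5.44, 5.20 and 12.2 (294, 206 and 577 fragments). The salivary gland library was thus the high one for both, with log2 ratios of liver to salivary glands of -1.04 (-1.10 to -0.98) and -1.56 (-1.77 to -1.36), and of small intestine to salivary glands of -1.83 (-1.92 to -1.75) and -1.32 (-1.55 to -1.08). NR4A3 was the exception, at 1.28, 0.297 and 0.225 (50, 6 and 7 fragments), with the liver past 2-fold at 2.30 (1.08 to 3.81) and 2.25 (1.10 to 3.63). The animal died during rescue, and the part of this in the NR4A levels was not tested.

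Orphan receptors: NR5A and the NR2 group. NR5A2 (LRH-1) binds phospholipids and activates genes of bile acid synthesis. It lies on scaffold NW_016532949.1 from 58520 to 175605, in an assembly that the sources used here do not name. It was at an FPKM of 43.7, 0.698 and 0.425 (2796, 28 and 21 fragments). Only the liver library was above the threshold, with log2 ratios of 5.88 (5.35 to 6.47) and 6.47 (5.85 to 7.16). The testicular receptors NR2C1 and NR2C2 were low to moderate. NR2C2 was at 5.06, 4.11 and 4.28 (572, 276 and 347 fragments), within 2-fold. The NR2C1 genes differed among themselves: gene24527 was at 3.26, 0.553 and 0.652 (26, 3 and 4 fragments), highest in the liver, while gene10900 was at 2.07, 2.47 and 3.63 (46, 41 and 64 fragments) and gene22708 at 1.56, 2.94 and 3.32 (16, 19 and 26 fragments), both lowest in FPKM in the liver. The liver was past 2-fold higher for gene24527, with log2 ratios of 2.36 (0.65 to 4.72) to the small intestine and 2.11 (0.58 to 4.09) to the salivary glands. Against the salivary glands it was lower for gene10900 (-1.07, -1.65 to -0.50) and gene22708 (-1.29, -2.29 to -0.34), and for gene22708 also against the small intestine (-1.01, -2.06 to 0.03). The last call was lost with library size only (-0.77) and by the deposited FPKM (-0.92), and that of gene10900 by the deposited FPKM (-0.81).

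NR2F1, NR2F2 and NR2F6 are the COUP transcription factors, of which NR2F1 and NR2F2 are known from mesenchymal cells. NR2F1 was at an FPKM of 6.20, 30.1 and 0.285 (156, 392 and 7 fragments), NR2F2 at 23.9, 28.4 and 7.31 (901, 730 and 206 fragments) and NR2F6 at 13.2, 31.2 and 21.1 (399, 471 and 382 fragments). The small intestine library was highest for each and the salivary glands were lowest for NR2F1 and NR2F2. Small intestine to salivary glands gave log2 ratios of 5.98 (4.92 to 7.30) for NR2F1 and 1.99 (1.77 to 2.22) for NR2F2. Liver to small intestine gave -2.09 (-2.37 to -1.82) for NR2F1 and -0.46 for NR2F2. Liver to salivary glands gave 3.89 (2.81 to 5.23) and 1.54 (1.32 to 1.76). The summed smooth muscle and fibroblast markers were also highest in the small intestine library, with 4 of 5 and 4 of 6 genes past 2-fold above the salivary glands. In the liver, 5 of 5 and 4 of 6 of these genes were past 2-fold below the salivary glands and 0 above. NR2F1 and NR2F2 were above the salivary glands there. The part of these markers was not tested. NR2F6 lay at a liver to small intestine ratio of -0.999 (-1.19 to -0.80), short of the call, and past it under 3 of the 4 other scalings.

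Orphan receptors: estrogen-related receptors and NR6A1. The estrogen-related receptors bind no estrogen and drive genes of mitochondrial energy metabolism. ESRRA was at an FPKM of 25.4, 42.8 and 34.1 (1023, 816 and 830 fragments), within 2-fold. ESRRG was at 0.084, 12.3 and 2.79 (5, 469 and 127 fragments) and ESRRB at 0.012, 1.56 and 0 (1, 72 and 0 fragments). Both were highest in the small intestine library and close to 0 in the liver. The log2 ratios of liver to small intestine were -7.31 (-8.94 to -6.08) for ESRRG and -6.93 (-12.25 to -4.41) for ESRRB, the most negative of all the receptor genes. ESRRG was at -5.26 (-6.90 to -4.00) for liver to salivary glands and at 2.05 (1.77 to 2.35) for small intestine to salivary glands. ESRRB was at least 27.0-fold higher in the small intestine than in the salivary glands. NR6A1, a repressor known from germ cells, was at 2.82, 3.16 and 3.93 (231, 165 and 253 fragments), within 2-fold. Its liver to salivary gland ratio of -0.72 was -1.06 without the 10 most counted genes of each library.

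Summed by class, the orphan receptors held most of the receptor FPKM, 274, 279 and 303, which is 56.8%, 65.7% and 70.6%. The fatty acid class summed to 37.1, 17.9 and 8.80. With receptors taken by symbol alone, which moves the HNF4 genes out, it was lower in the liver (10.3) than in the small intestine (15.5). Retinoid receptors summed to 67.8, 56.2 and 42.6, and bile acid and oxysterol receptors to 56.4, 38.2 and 46.7, of which NR1H2 was the largest part. The sums were 20.3, 15.5 and 12.7 for thyroid hormone and vitamin D receptors, 19.5, 17.5 and 15.2 for steroid receptors, and 7.08, 0.202 and 0 for xenobiotic receptors. The thyroid and vitamin D sum hid an exchange, since VDR led it in the liver and THRA in the other libraries.

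**Figure D2:**
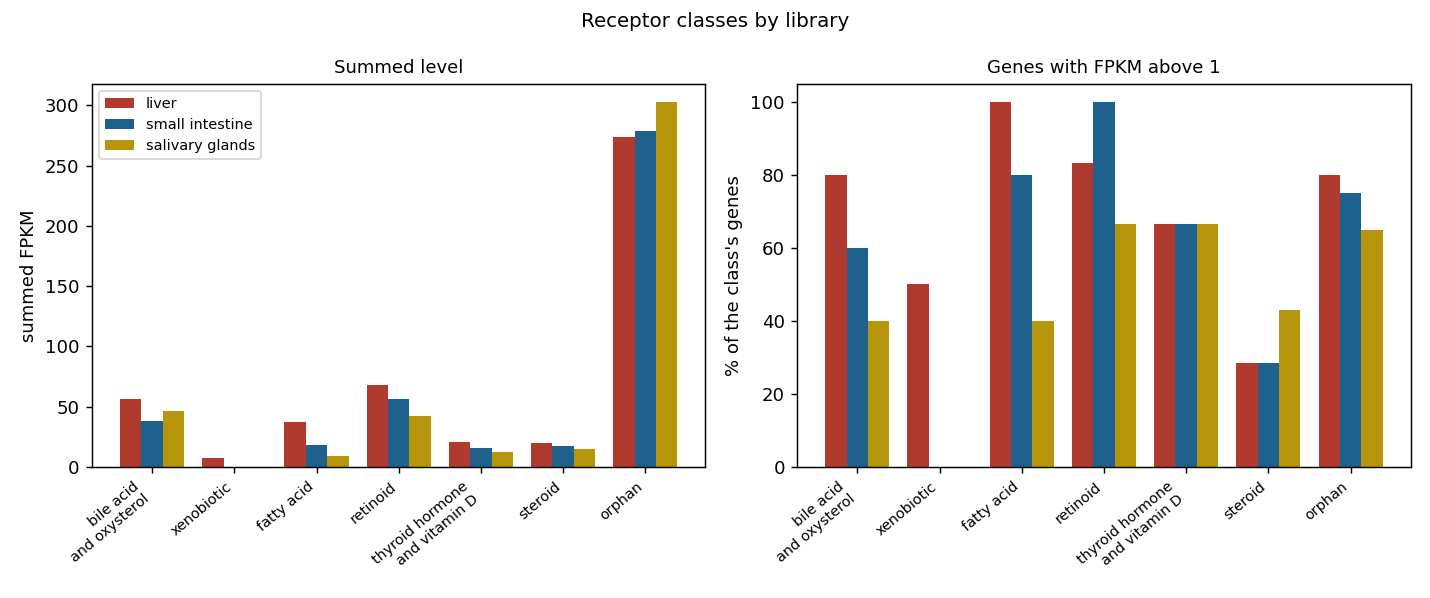
Summed FPKM of each receptor class (left) and percent of the genes of the class with an FPKM above 1 (right) in the 3 libraries. Orphan receptors summed to 274 in the liver, 279 for the small intestine and 303 for the salivary glands, and the fatty acid class to 37.1, 17.9 and 8.80.

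The RXR genes were set beside 14 listed receptors that are known to pair with RXR (FXR, LXR, PXR, CAR, PPAR, RAR, thyroid hormone and vitamin D receptors). NR4A1 and NR4A2, which can also pair with RXR, were left out of this set. RXR summed to an FPKM of 54.2, 33.3 and 34.7, and RXRA made up 56.5%, 55.2% and 40.6% of it. The partners summed to 107, 85.9 and 76.0, so that RXR stood at 0.505, 0.388 and 0.457 of its partners. NR1H2 led these 14 in each library, with 37.8%, 35.6% and 59.8% of the sum. Without it, the partners came to 66.9, 55.3 and 30.5. With NR4A1 and NR4A2 counted as partners, a choice made after the data were seen, the sums were 194, 144 and 252, NR4A1 led them in each library, and RXR stood at 0.279, 0.232 and 0.138 of its partners. The order of the libraries by this ratio then changed. These are transcript levels, and protein levels were not measured.

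**Figure D3:**
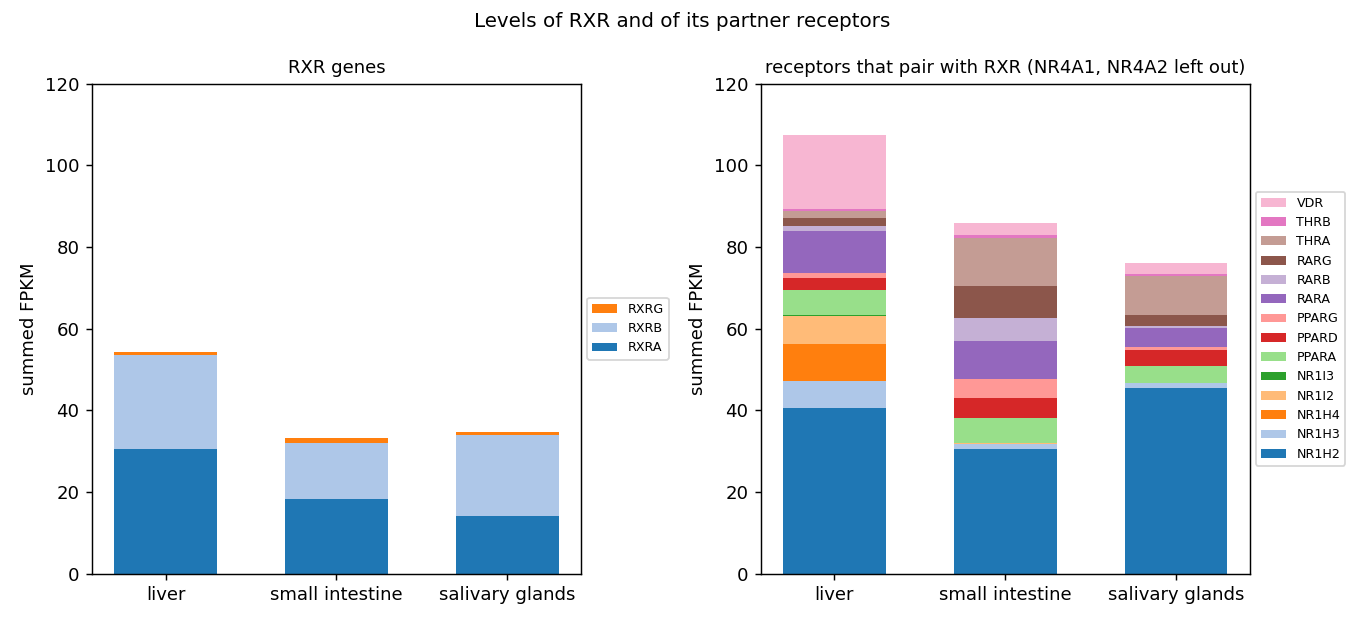
Summed FPKM of the RXR genes (left) and of 14 receptors that pair with RXR, NR4A1 and NR4A2 left out (right), stacked by gene, in each library. RXR came to 54.2, 33.3 and 34.7 and the partners to 107, 85.9 and 76.0, with NR1H2 as the largest block in each library.

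Counted over the genes with a ratio, 12 of 44 receptor genes were past 2-fold higher in the liver than in the small intestine (27.3%, against 24.0% of 17399 genes) and 12 past 2-fold lower (27.3%, against 24.2%). For the liver against the salivary glands, 14 of 41 were higher (34.1%, against 24.9% of 17162 genes) and 8 lower (19.5%, against 22.9%). With the small intestine set against the salivary glands, 11 of 39 were higher (28.2%, against 20.6% of 16519 genes) and 5 lower (12.8%, against 16.9%). These shares are near those of all genes, and nothing is read from them about receptors as a group. The median log2 ratio of the receptor genes was -0.15, 0.13 and 0.24 in these comparisons, against 0.08, 0.07 and -0.02 for all genes. The ratio is a bound for 3, 4 and 5 of the called receptor genes, and the counting interval lay wholly past 2-fold for 20, 16 and 13.

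Scaling by library size alone shifts every log2 ratio by 0.24, -0.22 and -0.46 in these comparisons. In the first comparison the receptor calls then split 15 higher to 10 lower, and in the last 10 to 7. Over all genes 49.8% of the calls were higher in the liver than in the small intestine, 57.6% with library size only and 38.2% without the 10 most counted genes of each library. For the liver against the salivary glands the shares were 52.1%, 44.4% and 39.99%, and for the small intestine against the salivary glands 54.9%, 35.7% and 54.3%.

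**Figure D4:**
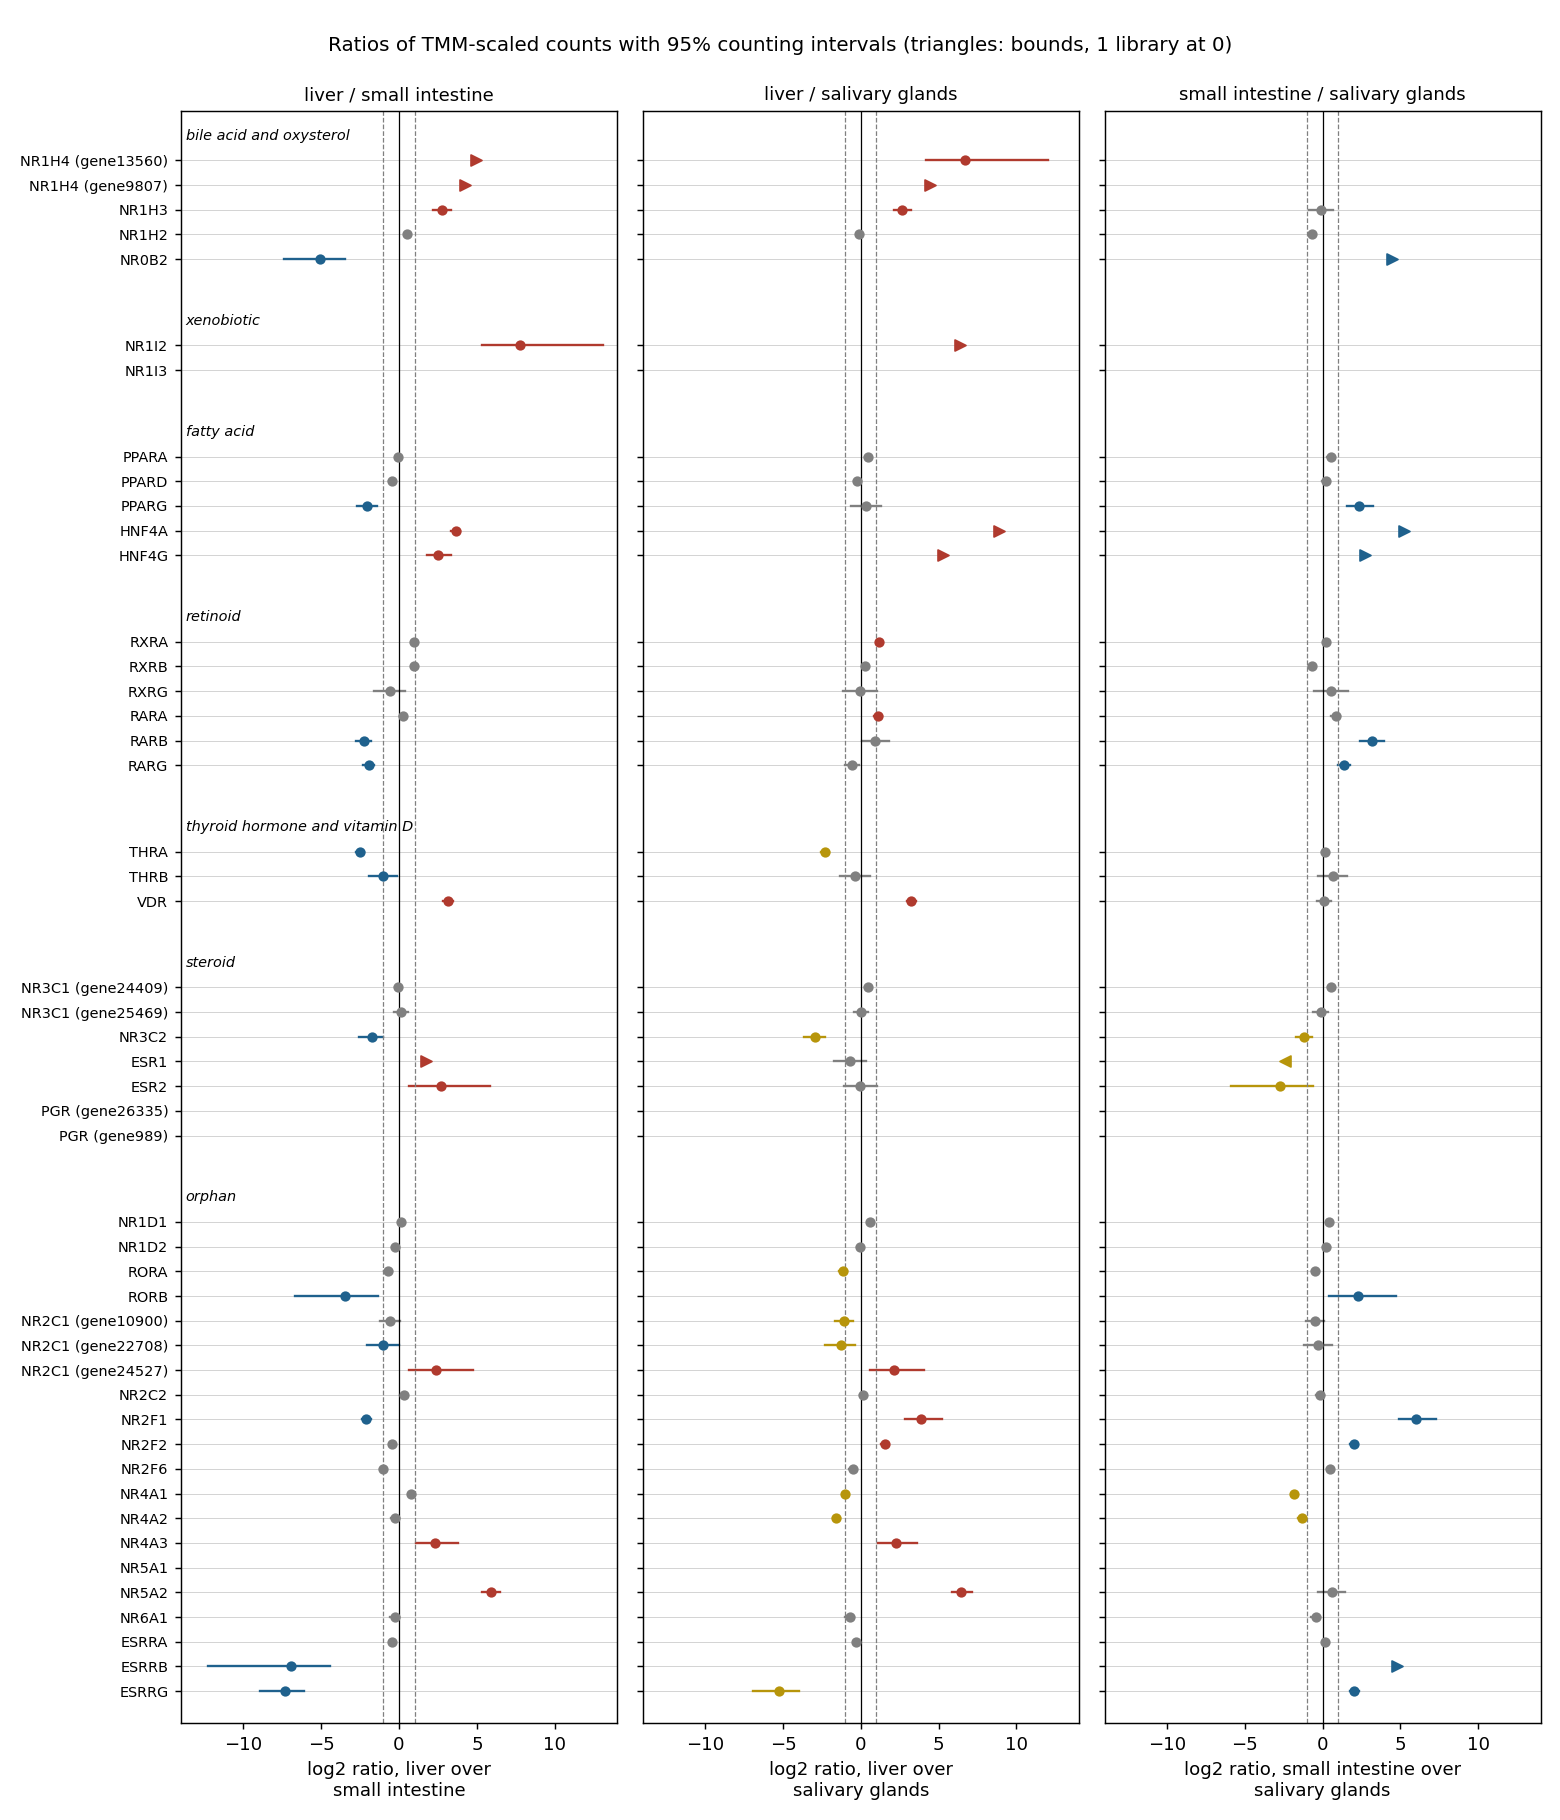
Log2 ratios of TMM-scaled counts for each receptor gene with at least 10 fragments in 1 of the 2 libraries, with exact 95% counting intervals; the dashed lines mark 2-fold, grey points are within it, coloured points are named by the library that is higher (red liver, blue small intestine, ochre salivary glands), and triangles are bounds. NR5A2, HNF4A, VDR and NR1H3 lie right of 2-fold in both liver panels, and ESRRG, THRA and NR3C2 lie left of it.

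The genes that receptors work with were taken from 11 lists, and from each the text names the genes with the highest FPKM. A gene was matched by the symbol of its KEGG entry or, failing that, of Swiss-Prot, checked against its product name. Genes at 0 in a library enter the medians at the 3-fragment bound. The counts stand beside the shares of all genes given above, 24.0% higher and 24.2% lower in the liver than in the small intestine, and 24.9% and 22.9% against the salivary glands. Coactivators and corepressors (14 of 14 found) were largely even. None was past 2-fold higher and 3 were lower in the liver against the small intestine, and 1 was higher and 5 lower against the salivary glands, with medians of -0.44 and -0.42. The histone acetyltransferases CREBBP (FPKM 18.4, 37.4 and 25.3) and EP300 (17.02, 17.8 and 10.7) were within 2-fold of the liver in both comparisons. The arginine methyltransferase CARM1 (8.75, 12.9 and 20.8) was past 2-fold lower in the liver than in the salivary glands.

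Genes of bile acid synthesis and transport (13 of 15 found) were mostly high in the liver: 10 of 10 with a ratio were past 2-fold above the small intestine and 9 of 10 above the salivary glands, with medians of 3.45 and 3.82. CYP27A1, the sterol 26-hydroxylase, was at an FPKM of 463, 7.77 and 0.659. The bile acyl-CoA synthetase SLC27A5 was at 46.9, 15.9 and 14.1, CYP7B1 at 30.2, 0.208 and 0.423, and the phospholipid exporter ABCB4 at 12.8, 0.951 and 1.01. Named after their values were seen, the following were at or near 0. The bile salt export pump ABCB11, a known target of FXR, had 0, 0 and 5 fragments on the gene with most reads of the 3 that carry its symbol. The transporter subunit SLC51A was at 0 in each library, and FABP6, the ileal bile acid binding protein, had 2 fragments in the liver. CYP7A1, the rate-limiting enzyme of bile acid synthesis, was among the called genes with 11, 0 and 0 fragments.

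Oxysterol receptor targets (8 of 8 found) were past 2-fold higher in the liver for 4 of 8 genes against the small intestine and 6 of 8 against the salivary glands, with none lower. APOE was at an FPKM of 3937, 66.1 and 6.56. The lipogenic regulator SREBF1 was highest in the small intestine library instead, at 107, 181 and 51.3. MYLIP, which degrades the LDL receptor, was at 119.9, 38.8 and 117, and the cholesterol exporter ABCA1 at 54.4, 13.4 and 7.63. The medians were 0.90 and 1.48.

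Of the xenobiotic response genes 7 of 12 were found, and 6 of 7 were past 2-fold higher in the liver than in the small intestine with 1 lower. Against the salivary glands 5 of 7 were higher and none lower, and the medians were 3.91 and 6.02. CYP1A2 was at an FPKM of 22.7, 0 and 0, and the exporter ABCC3 at 17.8, 3.59 and 0.146. The gene that was lower is ALAS1, the first enzyme of haem synthesis, at 38.4, 118 and 34.4. POR, the electron donor of cytochromes P450, was at 91.9, 27.05 and 70.4.

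PPAR targets (14 of 15 found) did not go one way. In the liver against the small intestine 5 of 12 were past 2-fold higher and 1 lower, and against the salivary glands 5 were higher and 5 lower. The kinase PDK4, which spares glucose, was at an FPKM of 139.9, 125 and 719. CPT1A, which admits fatty acids to mitochondria, was lower in the liver at 10.3, 75.9 and 67.2. The lipid droplet protein PLIN2 was at 47.98, 45.1 and 44.9. The medians were 0.76 and 0.27.

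Genes of retinoid synthesis and binding (14 of 15 found) were past 2-fold higher in the liver for 4 of 9 and lower for 3 of 9 against the small intestine, and for 5 and 2 of 9 against the salivary glands. The plasma carrier RBP4 was at an FPKM of 1987, 1.19 and 0. The retinaldehyde reductase DHRS3 was at 83.7, 24.3 and 23.2 and the retinol dehydrogenase RDH10 at 52.3, 17.4 and 14.3. ALDH1A1, which makes retinoic acid, was lowest in the liver at 17.2, 54.6 and 96.4. The medians were 0.64 and 1.78.

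Genes of thyroid hormone handling (6 of 7 found) were past 2-fold higher in the liver for 5 of 6 in either comparison, with 1 lower against the small intestine, and medians of 4.17 and 3.85. The transporter SLC16A10 was at an FPKM of 285, 17.3 and 18.8. The deiodinase DIO3, which inactivates the hormone, was at 21.9, 0.275 and 0, DIO1 at 2.996, 0.082 and 0, and the plasma carrier TTR at 6.77, 0.431 and 0. The receptors THRA and THRB were not high in the liver, as given above. Genes of vitamin D handling (5 of 6 found) were scarce in all libraries. CYP27B1, which makes the active hormone, reached 1.12 in the small intestine, TRPV6 0.912 there, CYP24A1 0.382 there, and S100G 0.221 in the liver. The genes with a ratio, 2 and 1, were lower in the liver.

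The glucocorticoid response list (12 of 12 found) split: 6 of 11 were past 2-fold higher and 2 lower in the liver against the small intestine, and 5 were higher and 3 lower against the salivary glands, with medians of 1.31 and 0.44. The higher ones included TAT, PCK1 and G6PC, enzymes of amino acid breakdown and glucose output, at an FPKM of 4316, 2584 and 509 in the liver and at most 1.22 elsewhere. TSC22D3, the glucocorticoid-induced leucine zipper, was the other way, at 52.4, 382 and 348. The mineralocorticoid response list (4 of 4 found) held only sodium channel subunits and their ligase. It was lower in the liver for 4 of 4 in both comparisons, with medians of -4.46 and -4.90. SGK1, placed in the glucocorticoid list, was past 2-fold higher in the liver in both, at an FPKM of 189, 32.0 and 7.75. The sodium channel subunits SCNN1A (1.05, 8.44 and 22.1), SCNN1B (0, 5.41 and 9.53) and SCNN1G (0, 2.38 and 1.25) and their ligase NEDD4L (2.18, 7.56 and 8.66) had the same low library as NR3C2.

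Clock partners (13 of 13 found) were past 2-fold higher in the liver for 2 and lower for 3 of 13 against the small intestine, and for 1 and 4 of 13 against the salivary glands, with medians of -0.57 and -0.35. The repressor BHLHE40 was at an FPKM of 94.15, 52.2 and 42.8 and NFIL3 at 51.02, 14.3 and 27.8. CRY2 and TEF were highest in the small intestine library, at 23.4, 70.4 and 25.7 and at 5.78, 61.3 and 13.8. All libraries come from 1 animal at 1 time, so no phase of the clock can be read from these levels.

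Between the small intestine and the salivary glands, no list had all its genes on one side of 2-fold. Higher and lower in the small intestine were 2 and 0 of 14 coactivators and corepressors, 1 and 0 of 6 bile acid genes, 3 and 1 of 6 oxysterol receptor targets, and 3 and 1 of 4 xenobiotic response genes. The counts were 2 and 4 of 10 for PPAR targets, 3 and 1 of 8 for retinoid genes, 1 and 0 of 2 for thyroid hormone genes and 1 and 0 of 2 for vitamin D genes. They were 1 and 2 of 9 for the glucocorticoid list, 0 and 2 of 4 for the mineralocorticoid list and 3 and 4 of 13 for clock partners.

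**Figure D5:**
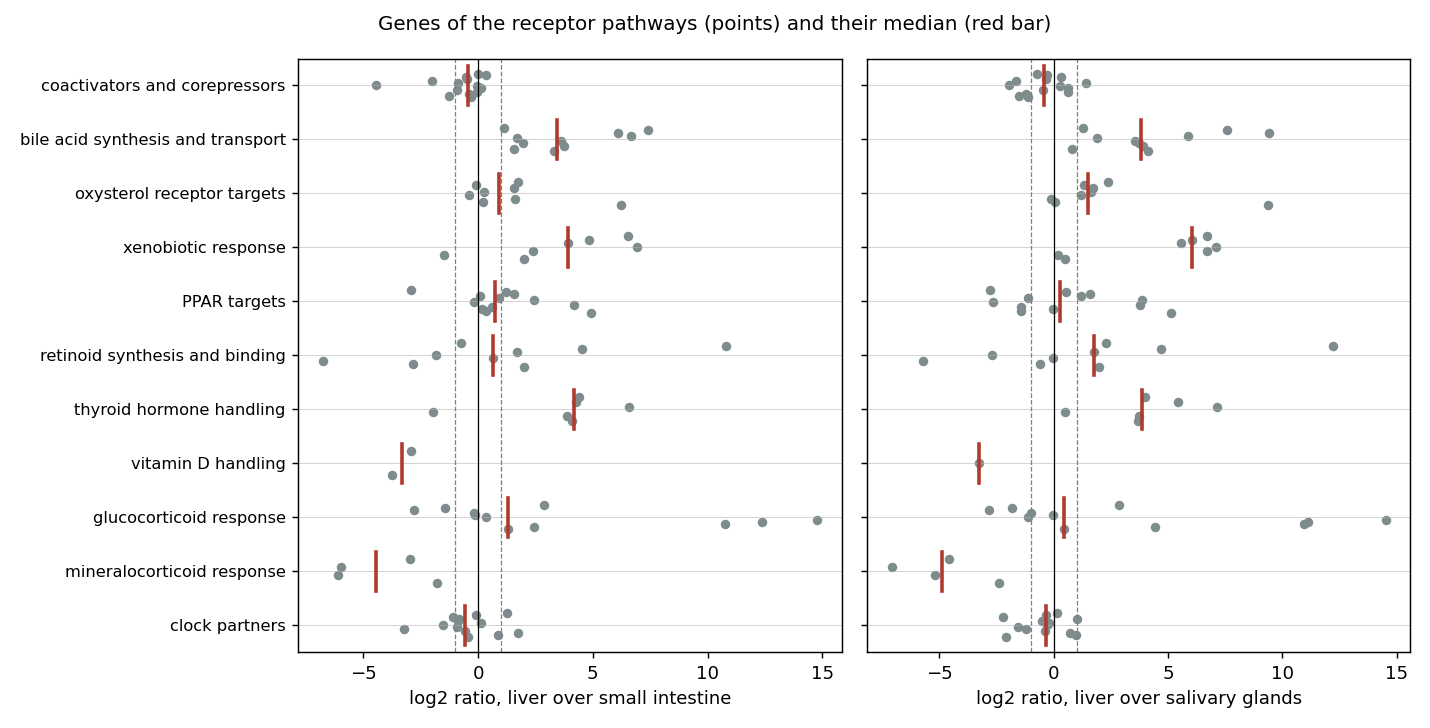
Log2 ratios of liver over small intestine (left) and over salivary glands (right) for the genes of 11 receptor pathway lists with at least 10 fragments in 1 of the 2 libraries (points), with the median of the list as a red bar and 2-fold dashed; where the lower library is at 0 the point is a bound. Bile acid, xenobiotic and thyroid hormone genes lie mostly right of 2-fold, mineralocorticoid response genes left of it, and coactivators and clock partners around 0.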

How the data were processed

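Reads with adaptors or of low quality were discarded by the authors, who aligned the rest to the *M. javanica* genome with TopHat2 without strand, and built new genes from unannotated reads with Cufflinks. The deposited counts are whole numbers of fragments per gene. RSEM is named for FPKM in a comparison of tissues. The tool behind the deposited counts and the genome build are not given in the sources used here. The deposited FPKM values are the authors' own, and they do not follow exactly from the deposited counts and lengths. The tables also hold a normalized score, deposited by the authors, which was read only as a check. For 67.6% to 69.6% of genes with fragments, it lay within 0.1% of the count times the median factor of the library. How far it lay from this for the other genes was not examined. The deposited annotation names genes by their best database hit.

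Computation used scipy 1.17.1, numpy 2.4.6 and pandas 2.3.3 under Python 3.11.15, with matplotlib 3.10.9 for plots. Counts were scaled with TMM (edgeR 4.0.16, R 4.3.3), and ratios carry exact binomial (Clopper-Pearson) 95% intervals. With 1 library per tissue no test was run. Tested on simulated data for each comparison, the ratio recovered 100% of 200 genes changed 4-fold. There were 330 to 367 calls among unchanged genes, and interval coverage was 92% to 95.5%. A 4-fold change lies well past the 2-fold call, so this recovery does not bear on changes near 2-fold. Recovery was not split by fragment count, so nothing is read from it about genes with few fragments. Nor is it read as a check of the TMM scaling. Alternatives were library size only, size factors of DESeq2 1.42.0, the FPKM ratio, other thresholds, TPM and the symbol alone. Members, classes and lists were chosen with earlier results of these data known. By the naming rule, each receptor gene with an FPKM above 1 in a library is given with its values, and up to 4 genes of a list with the highest FPKM. A symbol with several genes in a list is given by the gene with most reads. Some genes that this rule names are not reported here.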

Additional observations from a re-analysis of the deposited data

How the results depend on the processing

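No paired analysis was possible because each tissue has 1 library, and no library could be left out for the same reason. Each ratio past 2-fold kept its direction under the 4 other scalings. Calls were lost for 5 ratios with library size only, 2 without the 10 most counted genes of each library, 4 by the deposited FPKM and 0 with DESeq2 size factors, and 5, 4, 5 and 1 were gained. With a log2 ratio of at least 2, the genes lower in the liver than in the salivary glands went from 8 to 3, and those lower in the small intestine than in the salivary glands from 5 to 2. With intervals wholly past 2-fold these were 4 and 3, and with at least 50 counts the latter were 3. An FPKM above 5 left 21, 19 and 12 genes in the liver, small intestine and salivary glands.
In TPM, which rescales each library to the same sum, the class sums in this order were 90.5, 53.3 and 78.2 for bile acid and oxysterol, 59.6, 25.1 and 14.7 for fatty acid, 109, 78.5 and 71.3 for retinoid, 32.6, 21.6 and 21.2 for thyroid hormone and vitamin D, 31.2, 24.4 and 25.5 for steroid and 439, 389.7 and 507 for orphan receptors, and 11.4 in the liver for xenobiotic receptors. By the symbol alone, the HNF4 genes pass to the retinoid class and NR0B2 drops out: the fatty acid class came to 10.3 and 15.5 in the liver and small intestine, the retinoid class to 94.6 in the liver, and bile acid and oxysterol receptors to 31.9 in the small intestine. With NR4A1 and NR4A2 counted as partners, an alternative chosen after seeing the data, RXR over its partners went from 0.505, 0.388 and 0.457 to 0.279, 0.232 and 0.138. Depth limits genes under about 10 fragments, which carry no ratio here.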
